A study of Mus musculus with 26 samples.

Results

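Wnt proteins are secreted signals. When a Wnt binds a Frizzled receptor and an Lrp co-receptor, the cytoplasmic complex that destroys β-catenin is held back, and β-catenin reaches the nucleus and joins transcription factors of the TCF/LEF family at target genes. Several targets, such as *Axin2* and *Dkk1*, encode inhibitors of the same pathway and so feed back on it. In mouse pluripotent cells Wnt signalling is known for supporting naive self-renewal, and in the postimplantation epiblast for the formation of the primitive streak. A list of 9 genes was followed here, which are the ligands *Wnt3*, *Wnt6*, *Wnt7b*, and *Wnt8a*, the secreted antagonist *Dkk1*, the destruction complex scaffold and target *Axin2*, the nuclear factors *Lef1* and *Tcf7*, and the target *Sp5*. The genes were taken by name, and 8 of the 9 had both an RNA value and a baited promoter fragment. These were out of 15646 genes with RNA values and 19022 baited fragments with a listed contact. *Tcf7* had no row under its name in the RNA table and was not analysed here for RNA.

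The study compared wild-type (WT) embryonic stem cells (ESCs), epiblast-derived stem cells (EpiSCs), and *Nanog*-/- ESCs of the mouse by Promoter Capture Hi-C (PCHi-C), which sequences ligation products between a promoter fragment and the restriction fragments near it in the nucleus, and by RNA-seq. WT ESCs were E14Tg2a (129P2/OlaHsd), the *Nanog*-/- ESCs were 1 derived line, RCNβH-B(t), kept under hygromycin selection while it was expanded, and both grew on gelatin in medium with serum and LIF. EpiSCs were embryo-derived 129S2 cells grown on fibronectin in N2B27 with Activin A and bFGF, so that cell state, line, and medium cannot be told apart between EpiSCs and ESCs, nor can genotype and selection between the ESC lines. The strain tag of the samples reads C57BL/6, which differs from the strains in their growth protocol. PCHi-C was sequenced in 5 lanes for WT ESCs, 5 for *Nanog*-/- ESCs, and 2 for EpiSCs, and RNA in 3, 3, and 4 samples. The values below are 1 combined contact list and 1 median RPKM (reads per kilobase of gene, scaled to library size) per state, so none has a replicate error, and no test was made.

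*Nanog* itself was at 418 RPKM in WT ESCs and 191 in EpiSCs, and was lowest in the column taken as the knockout (22.3). Of the naive pluripotency markers with a value, 6 of 6 were lower past 2-fold in EpiSCs, and their summed level was 820 RPKM in WT ESCs, 592 in *Nanog*-/- ESCs, and 9.43 in EpiSCs. *Esrrb*, a naive factor, was at 0.411 RPKM in EpiSCs and *Nr0b1* was listed at 0. Of 5 primed markers, 1 was past 2-fold, *Fgf5*, at 4.74 RPKM in WT ESCs and 116 in EpiSCs. EpiSC values were divided by 1.89, the median ratio of EpiSC to WT ESC values over 9077 genes, because the deposited EpiSC values lay above those of WT ESCs by that factor (0.91 on the log2 scale). The corresponding ratio for *Nanog*-/- ESCs was 1.05 and was not applied. Differences below are in log2(RPKM + 1) after this scaling, which understates the change of genes at low levels, and a difference of 1 (2-fold) was taken as called. Fold values are ratios of RPKM + 1. Where 3 values are listed without a label, they stand in the order WT ESC, EpiSC, *Nanog*-/- ESC, and 2 values in the order WT ESC, EpiSC.

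Of the 8 members with RNA values, 3 were called higher in EpiSCs (*Wnt3*, *Wnt8a*, and *Dkk1*), 1 was called lower (*Wnt7b*), and 4 lay within 2-fold. Over all genes, 10.4% were called higher and 9.66% lower. In *Nanog*-/- ESCs, 2 members were called higher (*Wnt6* and *Dkk1*) and 2 lower (*Wnt7b* and *Lef1*), against 1.69% and 1.35% of all genes. All 8 members reached 1 RPKM in at least 1 state. Among the 10728 genes that did so, 15.2% were called higher and 14.1% lower in EpiSCs. In *Nanog*-/- ESCs the shares of these genes were 2.46% and 1.98%. Without the scaling, 30.1% of all genes were called higher in EpiSCs and 5.78% lower, and among the members 4 and 1. Both comparisons share the WT ESC samples.

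**Figure D1:**
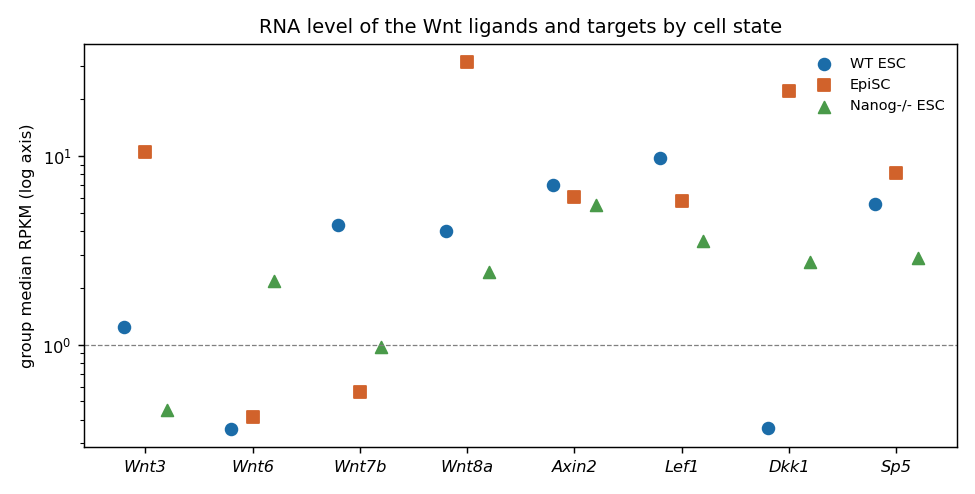
Median RPKM of each member (log axis) in WT ESCs (circles), EpiSCs after scaling (squares), and *Nanog*-/- ESCs (triangles), with 1 value per state and no error; the dashed line marks 1 RPKM. *Dkk1* spans 0.363 to 22 RPKM, whereas *Axin2* stays between 5.53 and 7.04.

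The promoter sequences below are shown because they hold the TCF/LEF core, the short DNA word at which TCF/LEF factors bind. RefSeq promoter windows (GRCm38.p6, 250 bases before to 50 after a gene start) were found for 7 members, 11 windows in all. *Wnt7b* and *Wnt8a* are named only. The core CTTTGA, searched on both strands, was present in windows of 3 members (*Dkk1*, *Sp5*, and *Lef1*), and each of these 3 windows held it at 2 places. The other *Lef1* windows, which lie within its baited fragment, held no core, and the *Lef1* window with the core lies outside it. Of 32851 windows in the reference, 16% held the core at least once and 1.73% at 2 or more places. The longer form CTTTGAT, which contains the core, was present only in the *Sp5* window among the members, and in 3.73% of all windows. The GC box GGGCGG, a binding word of Sp-type factors such as the *Sp5* product, was present in 8 of the 11 member windows, belonging to 5 members, and in 35.7% of all windows. A match describes these letters only. Sequences are on the gene's strand with the core or its reverse complement TCAAAG in capitals. They come from the reference genome, which is not that of the lines studied. *Sp5* spans chr2:70474673-70474972 on the plus strand with cores that begin at -204 and -104 from the gene start, the *Dkk1* window spans chr19:30549447-30549746 on the minus strand with cores at -174 and -117, and the *Lef1* window is that of a start inside the gene (chr3:131156044-131156343, plus strand), with cores at -180 and -120.
Sp5: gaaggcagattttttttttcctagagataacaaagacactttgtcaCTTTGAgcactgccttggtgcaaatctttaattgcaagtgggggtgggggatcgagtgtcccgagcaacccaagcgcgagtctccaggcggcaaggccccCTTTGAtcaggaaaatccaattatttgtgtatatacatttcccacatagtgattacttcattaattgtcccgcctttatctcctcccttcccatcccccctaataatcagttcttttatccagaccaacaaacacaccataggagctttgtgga
Dkk1: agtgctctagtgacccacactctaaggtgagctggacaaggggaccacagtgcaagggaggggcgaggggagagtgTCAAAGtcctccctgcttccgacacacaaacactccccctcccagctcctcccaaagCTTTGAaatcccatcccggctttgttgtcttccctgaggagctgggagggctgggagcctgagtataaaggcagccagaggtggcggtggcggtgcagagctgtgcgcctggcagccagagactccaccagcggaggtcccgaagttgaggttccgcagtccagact
Lef1: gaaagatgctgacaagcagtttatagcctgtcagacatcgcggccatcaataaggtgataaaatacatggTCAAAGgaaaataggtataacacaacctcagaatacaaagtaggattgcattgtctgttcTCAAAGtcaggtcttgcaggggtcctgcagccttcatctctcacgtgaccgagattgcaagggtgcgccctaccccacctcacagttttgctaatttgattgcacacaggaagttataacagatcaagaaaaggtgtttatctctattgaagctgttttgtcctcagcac

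The *Dkk1* window also holds the HindIII site AAGCTT that ends the baited fragment. The site begins at -120 and shares 3 bases with the second core match. The RefSeq start of *Dkk1* (base 30549496 of chromosome 19) lies 116 bases outside the baited fragment chr19:30549612-30553319, whereas the GENCODE start (base 30549665) lies 53 bases inside it, the annotated starts being 169 bases apart. The bait of *Dkk1* thus covers the region upstream of the gene, and most of the gene body lies outside it. For the other 7 members with a bait under their own name the GENCODE start lies within the baited fragment.

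Among the ligands, *Wnt3*, which is required for the primitive streak to form, was at 1.24 RPKM in WT ESCs, 0.45 in *Nanog*-/- ESCs, and 10.5 in EpiSCs. It was 5.16-fold higher in EpiSCs than in WT ESCs (log2 difference 2.37), the 234th largest increase among 15646 genes. The difference for *Nanog*-/- ESCs was -0.62 and passed 2-fold only with a pseudocount of 0.1 RPKM (-1.28). *Wnt8a*, a ligand of the epiblast and streak, had the order EpiSC, WT ESC, *Nanog*-/- ESC as well, with 31.4, 4.02, and 2.42 RPKM, and was 6.46-fold higher in EpiSCs (2.69). *Wnt7b*, a ligand of several epithelia, was lower in both other states. It was at 4.32 RPKM in WT ESCs, 0.973 in *Nanog*-/- ESCs, and 0.561 in EpiSCs, with differences of -1.77 for EpiSCs and -1.43 for *Nanog*-/- ESCs. *Wnt6* was under 1 RPKM in WT ESCs (0.359) and EpiSCs (0.415) and at 2.18 in *Nanog*-/- ESCs, 2.34-fold above WT ESCs. The ligands therefore did not share a pattern, and none was called higher in both EpiSCs and *Nanog*-/- ESCs.

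The secreted antagonist *Dkk1*, which blocks the Lrp co-receptors, had the largest difference among the members in EpiSCs. It was at 0.363 RPKM in WT ESCs, 2.73 in *Nanog*-/- ESCs, and 22 in EpiSCs. The EpiSC value was 16.9-fold above that of WT ESCs (4.08), the 19th largest increase among 15646 genes, and the *Nanog*-/- value was 2.74-fold above it (1.45). *Dkk1* was the only member called higher in both comparisons. No other gene lay within 0.5 of *Dkk1* in Euclidean distance over log2(RPKM + 1) of the 3 states, and the nearest were *Pcdh7* (0.55), *Scarf2* (0.65), and *Ifi27l1* (0.66).

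The targets *Axin2*, *Sp5*, and *Lef1* lay within 2-fold in EpiSCs. *Axin2*, a widely used readout of the pathway, was at 7.04 RPKM in WT ESCs, 5.53 in *Nanog*-/- ESCs, and 6.08 in EpiSCs, and 206 genes lay within 0.5 of it. *Sp5*, a zinc finger factor induced by β-catenin, was at 5.59 RPKM in WT ESCs, 2.87 in *Nanog*-/- ESCs, and 8.17 in EpiSCs. *Lef1*, which carries β-catenin to DNA and is itself a target, was at 9.72 RPKM in WT ESCs, 3.54 in *Nanog*-/- ESCs, and 5.78 in EpiSCs, and was called lower in *Nanog*-/- ESCs (-1.24). The directions of *Axin2* and *Lef1* in EpiSCs depended on the scaling. With it the differences were -0.18 and -0.66, and with RPKM as deposited they were 0.63 and 0.15. For *Sp5* the difference of 0.48 became 1.32 without scaling, past 2-fold.

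The genes nearest to *Wnt3* over the 3 states were *1700027A23Rik*, *Calcr*, and *Nrcam* (distances 0.14 to 0.31). For *Wnt6* they were *Irs3*, *Itga2*, and the trophoblast and hindgut factor *Cdx2* (0.02 to 0.25). *Cspg5*, *Tgm3*, and *Ctcfl* were nearest to *Wnt7b* (0.15 to 0.37), and *Tubb4*, *Mogat2*, and *Chst15* to *Wnt8a* (0.30 to 0.47). *Slc36a1*, *Fn3krp*, and *Adcy3* were nearest to *Axin2* (0.13 to 0.15), and *Syt13*, *Efr3b*, and *Cc2d2a* to *Sp5* (0.11 to 0.17). A profile over 3 values is short, and many genes lay as near, such as 38 within 0.5 of *Wnt6* and 61 within 0.5 of *Sp5*, against 12 for *Wnt3* and 3 for *Wnt8a*.

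Markers of other cell types differed between the states together with some members. All 5 primitive streak and mesendoderm markers were called higher in EpiSCs, where *Wnt3*, *Wnt8a*, and *Dkk1* were higher, and their summed level was 8.32 RPKM in WT ESCs, 7.08 in *Nanog*-/- ESCs, and 326 in EpiSCs. The most abundant of them in EpiSCs was *T*, at 236 RPKM. Of 4 fibroblast markers, 3 were called higher in EpiSCs, with sums of 43.9 RPKM in WT ESCs, 52 in *Nanog*-/- ESCs, and 202 in EpiSCs, led by *Col1a1* at 72.6 RPKM in EpiSCs. In *Nanog*-/- ESCs, where *Wnt6* and *Dkk1* were higher, all 5 primitive endoderm markers were called higher, with sums of 3.13 RPKM in WT ESCs, 59.2 in *Nanog*-/- ESCs, and 17.1 in EpiSCs, led by *Gata4* at 18.5 RPKM in *Nanog*-/- ESCs. Of these 5 markers, 3 were also called higher in EpiSCs, where *Dkk1* was highest. Trophoblast markers (2 of 4 with values) summed to 0.564, 0.436, and 1.79 RPKM and neural markers (2 of 3) to 1.49, 1.08, and 1.74. More cells of a type and more RNA per cell cannot be told apart in these bulk samples, and the part of other cell types in the members' levels was not tested.

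The remaining genes of the pathway were counted by role, from a list of 93 genes of which 82 had values. In EpiSCs 25 of the 82 were called higher (30.5%) and 4 lower (4.88%), against 10.4% and 9.66% of all genes, and the median difference was 0.38 against 0.00. In *Nanog*-/- ESCs, 2 were called higher (2.44%) and 3 lower (3.66%), against 1.69% and 1.35%, with a median of 0.04 against 0.01. At 1 RPKM or more in at least 1 state, 69 pathway genes remained. Of these, 36.2% were called higher and 5.8% lower in EpiSCs, against 15.2% and 14.1% of all such genes. In *Nanog*-/- ESCs the shares were 2.9% and 4.35%, against 2.46% and 1.98%. Among 15 further ligands, 5 were higher in EpiSCs, including *Wnt9a* (2.21 to 7.07 RPKM), *Wnt5b* (1.43 to 5.1), *Wnt5a* (0.839 to 3.6), and *Wnt11* (0.549 to 3.45), and none was as abundant there as *Wnt8a*. *Wls*, the carrier that takes Wnt proteins to the cell surface, was at 6.33 RPKM in WT ESCs, 14.8 in *Nanog*-/- ESCs, and 54.9 in EpiSCs and was called higher in both, as *Dkk1* was. *Porcn*, which adds the lipid that Wnt proteins need, was lower in EpiSCs (18.7 and 6.85 RPKM). This call depended on the scaling, since the deposited EpiSC value of 12.9 RPKM lay within 2-fold of WT ESCs. Among 14 measured receptors 5 were higher in EpiSCs, including *Fzd2* (8.04 and 66.1 RPKM), *Fzd6* (2.77 and 15.7), *Fzd8* (2.26 and 13.7), and *Fzd3* (2.61 and 8.31). *Ryk*, which had the largest mean over the 3 states, was at 44.4 and 64.9. In the R-spondin axis, which stabilizes the receptors, *Rspo3* (0.287 and 13.6 RPKM) and *Lgr5* (0.0486 and 4.55) were higher in EpiSCs and *Lgr4* was at 44.2 and 44.

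Of 12 measured antagonists besides *Dkk1*, 6 were called higher in EpiSCs, including *Sfrp1* (16.4 and 50.3 RPKM), *Apcdd1* (3.1 and 10.1), and *Kremen2* (1.55 and 6.78). The 2 called lower included *Sfrp4* (4.35 and 0.477). *Sfrp2*, with the largest mean over the 3 states, was at 30.1 and 19.3. Unlike *Dkk1*, *Sfrp1* was lower in *Nanog*-/- ESCs (5.25 RPKM). The cytoplasmic relay held 1 gene past 2-fold of 15, *Nkd1* (1.9 and 11.8 RPKM), and *Ctnnb1*, the gene of β-catenin, was at 378, 376, and 395 RPKM in WT ESCs, EpiSCs, and *Nanog*-/- ESCs. Among 8 nuclear factors *Bcl9* (8.86 and 20.3 RPKM), *Bcl9l* (4.09 and 13.9), and *Tcf7l2* (1.06 and 4.62) were higher in EpiSCs, and *Tcf7l1* was at 33.5 and 57.9. Among the other targets, *T* was at 3.37, 236, and 1.14 RPKM in the 3 states, *Ccnd1* at 86.4, 105, and 27, *Myc* at 24.2, 29.2, and 72.2, and *Cdx1* at 2.44, 0, and 5.6. Without scaling, 46 of the 82 genes were called higher in EpiSCs (56.1%) and 3 lower (3.66%), against 30.1% and 5.78% of all genes.

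**Figure D2:**
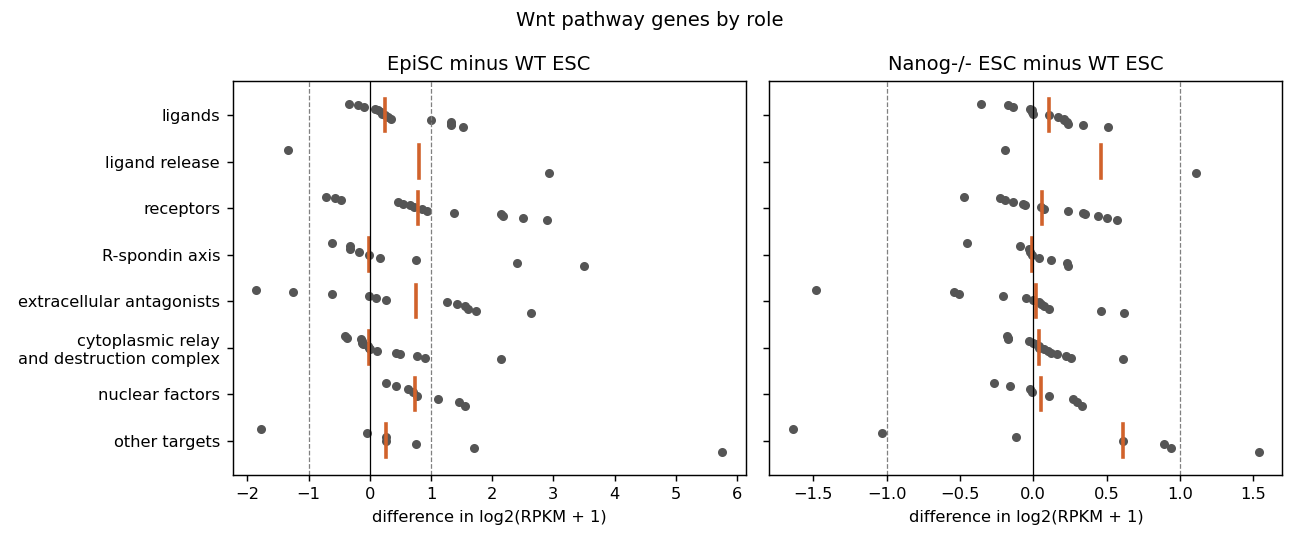
Difference in log2(RPKM + 1) of each pathway gene from WT ESCs, by role, in EpiSCs (left) and *Nanog*-/- ESCs (right). Points are genes, orange bars role medians, and dashed lines 2-fold; the horizontal scales differ, and receptors have a median of 0.79 in EpiSCs and 0.06 in *Nanog*-/- ESCs.

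The contact lists gave, for each pair of HindIII fragments, the reads that join them and a CHiCAGO score, which weighs the reads against those to be expected by chance for fragments so far apart. Scores begin at 5 in all 3 lists, so a pair that a list does not hold may have fallen short of that score. The 8 member baits had 92 contacts in the WT ESC list, 99 in the EpiSC list, and 91 in the *Nanog*-/- list, which came to 176 different partner fragments. Of these, 29 were in all 3 lists, 48 in 2, and 99 in 1. The same split is not given here for all pairs. Of all WT ESC pairs, 39.6% were in the EpiSC list and 41.8% in the *Nanog*-/- list, so partners in 1 list are not particular to the members. All lay on the chromosome of the bait, at most 471 kb away. By GENCODE annotation, 67 partners overlapped an exon of a protein-coding gene, 39 an intron only, and 70 neither, and 34 carried a bait themselves. The numbers per member ranged widely in WT ESCs, from 2 contacts of *Axin2* and of *Sp5* to 22 of *Wnt6*, beside a median of 4 over baits with a contact. The lists hold 100492, 87369, and 74931 pairs with 2177284, 1651286, and 1438550 reads. Sequencing depth cannot be read from these sums, since pairs of lower score are left out. The median distance within a chromosome was 139, 141, and 74.1 kb. The *Nanog*-/- list as a whole thus held shorter pairs, and short member contacts listed only there are not set apart from this.

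**Figure D3:**
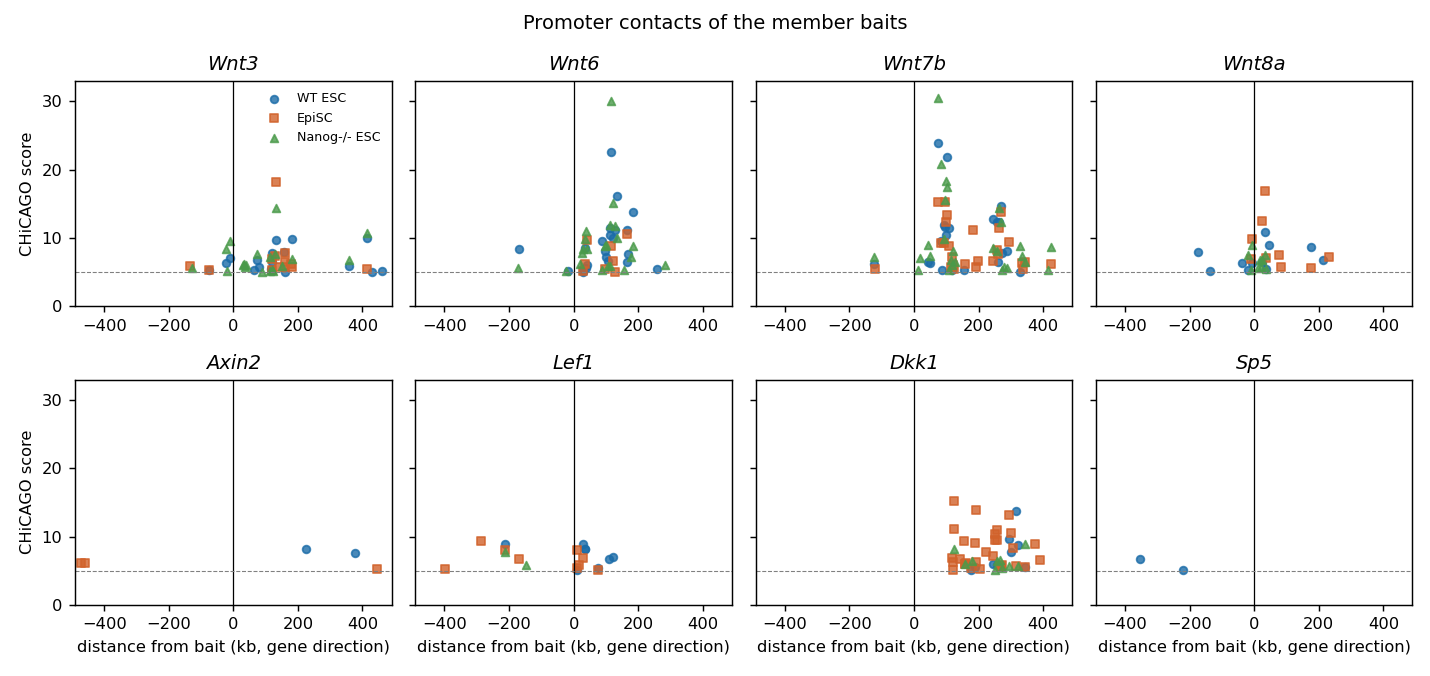
CHiCAGO score of each contact against its distance from the bait in kb, positive in the direction of transcription, for 8 members and 3 lists. The dashed line is the lowest listed score, 5; all *Dkk1* contacts lie on the positive side, and *Wnt6* and *Wnt7b* hold the highest scores, 30.07 and 30.57 in *Nanog*-/- ESCs.

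A bait was called when its number of contacts plus 1 differed 2-fold from WT ESCs. Shares of all baits are over baits with a contact in at least 1 list, so captured baits with none are left out, and shares over every captured bait would be lower. In EpiSCs 1 of the 8 members had more contacts (*Dkk1*) and 2 had fewer (*Wnt6* and *Sp5*), against 16.4% and 27.7% of all baits. In *Nanog*-/- ESCs none of the 8 had more and 3 had fewer (*Axin2*, *Lef1*, and *Sp5*), against 7.64% and 33.3%. The 3 of 8 members are close to the share of all baits, and baits with few contacts, such as *Sp5*, can pass the ratio by 2 contacts. At a score of at least 7, 2 members had fewer contacts in EpiSCs and 2 in *Nanog*-/- ESCs, against 30.8% and 30.9% of all baits. With at least 10 reads the numbers were 2 and 2 as well, against 34% and 37.2%. The members called for fewer contacts changed (ratios in parentheses). At a score of at least 7 they were *Wnt6* (0.27) and *Axin2* (0.33) in EpiSCs, and *Axin2* and *Lef1* (0.33 each) in *Nanog*-/- ESCs. With at least 10 reads they were *Wnt3* (0.36) and *Wnt6* (0.38) in EpiSCs, and *Lef1* (0.11) and *Dkk1* (0.22) in *Nanog*-/- ESCs. *Sp5* kept no contact under either limit, and *Axin2* none with at least 10 reads.

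**Figure D4:**
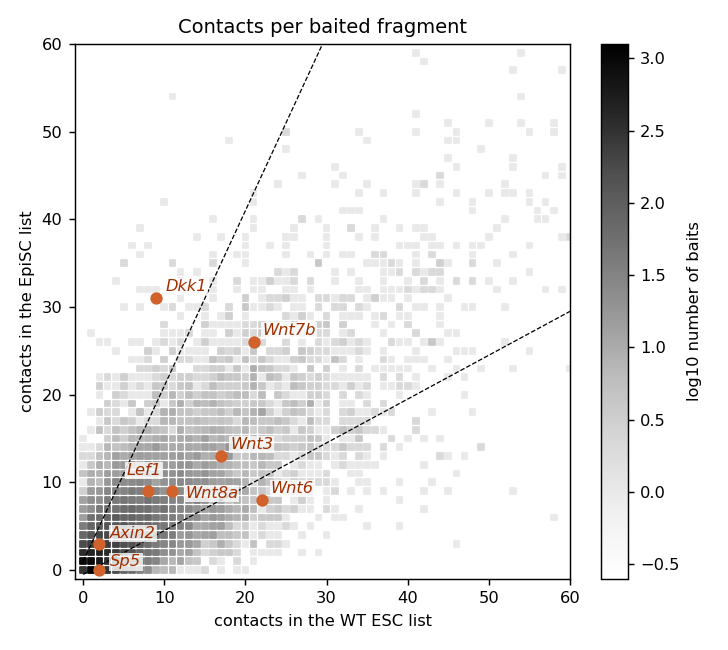
Contacts of each baited fragment in the WT ESC list and the EpiSC list, with the number of baits in grey (log10) and the members in orange; dashed lines mark 2-fold after adding 1, and 43 baits with over 60 contacts lie outside the axes. *Dkk1* lies above the upper line with 9 and 31 contacts and *Wnt6* below the lower line with 22 and 8.

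*Dkk1* stood out in its contacts as in its RNA. It had 9 contacts in WT ESCs, 10 in *Nanog*-/- ESCs, and 31 in EpiSCs, and the gain of 22 in EpiSCs ranked 31st of 19022 baits. The EpiSC contacts held 371 reads, those of WT ESCs 103, and those of *Nanog*-/- ESCs 73. In every list all contacts lay on one side of the bait, downstream of the gene on the side of *Mbl2*, at distances from 119 to 390 kb. Of EpiSC baits with 20 or more contacts, 18.7% had all of them on 1 side. Of the 34 partners over all lists, 18 were in the EpiSC list only, 2 in all 3, and 12 in 2 lists. The highest EpiSC score, 15.15 from 26 reads (Poisson 95% interval 17 to 38.1), joined *Dkk1* to the intergenic fragment chr19:30427057-30428200 at 124 kb, which the *Nanog*-/- list held with 11 reads (5.49 to 19.7, score 8.16) and the WT ESC list did not hold. It lay in a run of 4 adjacent fragments in contact in EpiSCs, chr19:30427057-30432456, with 73 reads. In WT ESCs the highest score, 13.78 from 18 reads (10.7 to 28.4), belonged to the fragment of the *Mbl2* promoter at 317 kb, which had 7 reads (2.81 to 14.4, score 5.62) in EpiSCs. The contacts of *Dkk1* in EpiSCs thus lay nearer, at a median of 224 kb against 293 kb in WT ESCs and 262 kb in *Nanog*-/- ESCs. Of the 2 fragments in all 3 lists, both intergenic, chr19:30255767-30261048 had 13, 14, and 6 reads and chr19:30295627-30296266 had 10, 12, and 7. Interval bounds here cover counting error only.

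The second highest EpiSC score of *Dkk1*, 13.94 from 18 reads (10.7 to 28.4), fell on a fragment short enough to print, chr19:30358930-30359085, an intergenic stretch of 156 bases at 192 kb that the other lists did not hold. It contains no CTTTGA on either strand, and 32.7% of its bases are G or C. The capitals mark what the HindIII cut leaves at its ends.
Dkk1 partner: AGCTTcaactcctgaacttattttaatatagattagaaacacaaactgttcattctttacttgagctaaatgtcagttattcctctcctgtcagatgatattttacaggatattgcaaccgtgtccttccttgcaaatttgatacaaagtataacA

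Among neighbouring promoters, chosen after their values were seen, *Gldc* and *U1.149* also passed 2-fold more contacts in EpiSCs, from low numbers. *Mbl2* had 2, 2, and 0 contacts in WT ESCs, EpiSCs, and *Nanog*-/- ESCs, *Gldc* 1, 4, and 3, *U1.149* 2, 6, and 4, and *Gm6635*, a *Dkk1* partner in EpiSCs at 390 kb, 9, 3, and 12. *Mbl2* RNA was at or under 0.0719 RPKM in all 3 states.

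*Wnt3* (bait chr11:103767171-103778227) had 17, 13, and 20 contacts, but at 10 or more reads its ratio in *Nanog*-/- ESCs was 0.71 instead of 1.17. Its highest EpiSC score, 18.14 from 19 reads (11.4 to 29.7), joined it to an intron of *Nsf*, the gene of a vesicle fusion ATPase, at 133 kb (chr11:103903042-103908312). The same pair was in the WT ESC list with 14 reads (7.65 to 23.5, score 9.67) and in the *Nanog*-/- list with 14 reads (score 14.39), so the intervals of the reads overlapped although the score in EpiSCs was the highest. Other partners in all 3 lists were another *Nsf* intron fragment, the *Nsf* promoter at 182 kb, and the fragment of *4933407P14Rik* at 414 kb. Upstream, *Wnt3* was joined to the promoter of its paralogous neighbour *Wnt9b* (chosen after its values were seen), 23 kb away, with 41 reads in WT ESCs (29.4 to 55.6, score 6.32) and 26 in *Nanog*-/- ESCs (17 to 38.1, score 8.31), a pair not in the EpiSC list. *Wnt9b*, at most 0.184 RPKM in any state, had 33, 9, and 29 contacts. The *Wnt3* promoter thus lacked a listed contact with *Wnt9b* in EpiSCs, the state in which its own RNA was highest. At 11 kb, an intergenic fragment was listed in WT ESCs (60 reads) and *Nanog*-/- ESCs (43 reads) and likewise not in EpiSCs, where the nearest contact of *Wnt3* was at 75.9 kb.

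*Wnt6* (bait chr1:74766819-74773045) had 22, 8, and 22 contacts, and all 8 EpiSC contacts were among those of WT ESCs. Its highest score in WT ESCs (22.61) and *Nanog*-/- ESCs (30.07) belonged to the fragment of *Fev*, a neuronal ETS factor gene, at 116 kb (chr1:74884158-74886927), with 47 reads in WT ESCs (34.5 to 62.5), 17 in EpiSCs (9.9 to 27.2), and 31 in *Nanog*-/- ESCs (21.1 to 44). The WT ESC and EpiSC intervals did not overlap, but the total reads of the lists also differ. *Cryba2* at 121 kb and *Mir375* at 128 kb were in all 3 lists too. In EpiSCs the highest score, 10.53 from 6 reads, fell on the fragment of *Ccdc108* at 165 kb. WT ESCs held that pair with 8 reads (score 11.18), and the *Nanog*-/- list did not hold it. *Gm15841* at 133 kb came after *Fev* in WT ESCs (17 reads, score 16.10) and was not in the EpiSC list. The promoter of *Ihh*, a hedgehog ligand gene, at 183 kb was listed in WT ESCs (18 reads, score 13.78) and *Nanog*-/- ESCs (8 reads, score 8.78). *Wnt6* was joined to the promoter of *Wnt10a* (chosen after its values were seen), 20.9 kb away, in the *Nanog*-/- list only (20 reads, score 6.19). *Wnt6* RNA passed 1 RPKM only in *Nanog*-/- ESCs, while its number of contacts there equalled that of WT ESCs. At 10 or more reads the contacts were not equal, with a ratio of 0.67. *Fev*, *Cryba2*, and *Ihh* RNA stayed under 0.5 RPKM in every state.

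*Wnt7b* (bait chr15:85579596-85583817) had 21, 26, and 28 contacts and kept the most partners in all 3 lists, 11 of 40. Its ratio in *Nanog*-/- ESCs, 1.32, was 0.76 at 10 or more reads. Its highest scores in WT ESCs (23.85, 36 reads, 25.2 to 49.8) and *Nanog*-/- ESCs (30.57, 28 reads, 18.6 to 40.5) belonged to the fragment of *Gm4825* at 76 kb, which had 20 reads in EpiSCs (12.2 to 30.9, score 15.27). The highest EpiSC score, 15.33 from 32 reads, lay at 97.2 kb in the intergenic fragment chr15:85483945-85485066, which had 25 reads in WT ESCs and 19 in *Nanog*-/- ESCs. A second group of partners, at 246 to 273 kb, reached the *Atxn10* promoter, which was listed in all 3 states. *Wnt7b* RNA was 0.294 times its WT ESC level in EpiSCs, and its contacts numbered 26 there. In the EpiSC list no contact lay within its own gene, whereas WT ESCs had 2 and *Nanog*-/- ESCs 4.

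*Wnt8a* had 11, 9, and 9 contacts, at a median distance of 37.8, 37.4, and 20.8 kb, which are short beside those of the other ligands. The highest score in WT ESCs and EpiSCs joined it to the promoter of *Nme5*, 34.5 kb downstream, with 41 reads in WT ESCs (29.4 to 55.6, score 10.86), 62 in EpiSCs (47.5 to 79.5, score 16.84), and 24 in *Nanog*-/- ESCs (15.4 to 35.7, score 7.48). *Nme5* RNA, like that of *Wnt8a*, was highest in EpiSCs, with 0.375, 8.17, and 0.568 RPKM in WT ESCs, EpiSCs, and *Nanog*-/- ESCs. The highest *Nanog*-/- score, 9.01 from 91 reads, fell on the intergenic fragment 6.52 kb upstream, which had 139 reads in WT ESCs and 160 in EpiSCs. The promoter of *4933408B17Rik* was contacted in WT ESCs only, and that of *Gfra3* in WT ESCs and EpiSCs.

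*Lef1* (bait chr3:131103630-131114076) had 8, 9, and 2 contacts, the lower number going with its lower RNA in *Nanog*-/- ESCs. Its ratio in EpiSCs, 1.11, was 0.67 at a score of at least 7 and 0.56 at 10 or more reads. It was joined to no other baited fragment. Of its 14 partners 1 was in all 3 lists, the intergenic fragment chr3:130893769-130900681, 212 kb upstream, with 11, 7, and 8 reads. In WT ESCs the highest score, 8.98 from 35 reads (24.4 to 48.7), lay in an intron of its own gene at 30 kb, a contact that EpiSCs had with 20 reads (12.2 to 30.9) and the *Nanog*-/- list did not hold. *Axin2* (bait chr11:108914244-108922208) had 2 contacts in WT ESCs, with the promoters of *E030025P04Rik* at 225 kb (8 reads, score 8.13) and *Rgs9* at 376 kb (6 reads, score 7.59), none in *Nanog*-/- ESCs, and 3 others in EpiSCs with 4 reads each. *Sp5* (bait chr2:70466749-70478607) had 2 contacts of 6 reads each in WT ESCs, both in *Myo3b*, at 222 and 354 kb, and none in the other lists. At such read numbers the lists cannot show whether *Axin2* and *Sp5* differ between states.

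No baited fragment in the lists carries the name of *Tcf7*, a TCF/LEF factor and target. Its GENCODE start (base 52283014 of chromosome 11) lies on the fragment chr11:52273699-52294877, which was baited under the name of the overlapping gene *A630014C17Rik*. The fragment had 7, 11, and 11 contacts, of which 6 were in all 3 lists, 5 of them within *Tcf7* and 1 with the *Skp1a* promoter at 52.4 kb (22, 24, and 14 reads). Contacts of this fragment cannot be told apart between *Tcf7* and *A630014C17Rik*, and they are not in the sums given for the 8 members.

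Of the 92 WT ESC contacts of the members, 43 were also in the EpiSC list (46.7%, exact Clopper-Pearson 95% interval 36.3% to 57.4%), against 39.6% of all WT ESC pairs. In the *Nanog*-/- list 49 were found (53.3%, 42.6% to 63.7%), against 41.8%. Under stricter limits the members lay above all pairs in 2 of 4 cases. At a score of at least 7, 35.4% against 38.4% were kept in EpiSCs and 50% against 43.1% in *Nanog*-/- ESCs, and at 10 or more reads 41.8% against 40.2% and 38% against 39.8%. In the other direction, 43.4% of the EpiSC contacts and 53.8% of the *Nanog*-/- contacts of the members were in the WT ESC list, against 45.5% and 56% of all pairs. Contacts of 1 bait are not independent, so the intervals are too narrow. *Wnt7b* kept 17 of 21 contacts in *Nanog*-/- ESCs (81%, 58.1% to 94.6%) and *Lef1* 1 of 8 (12.5%, 0.316% to 52.7%). Whether members differ in this share was not tested. *Dkk1* kept 7 of 9 in EpiSCs, while those 7 were 22.6% of its EpiSC contacts.

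**Figure D5:**
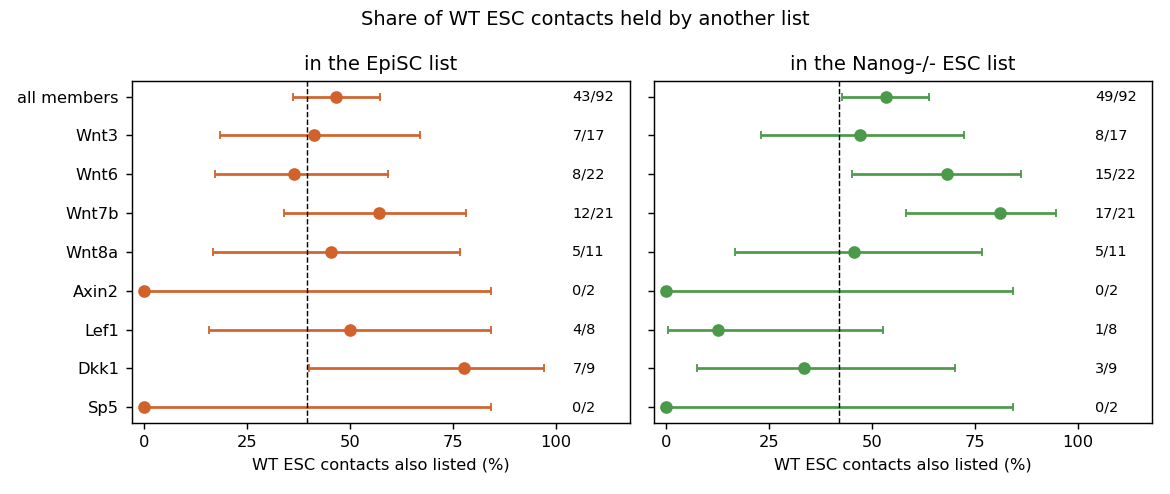
Share of the WT ESC contacts of each member that the EpiSC list (left) or the *Nanog*-/- list (right) also holds, in percent, with exact 95% intervals and the counts at the right. The dashed lines mark all WT ESC pairs, 39.6% and 41.8%; the interval lies above them for all members, *Wnt7b*, and *Wnt6* in *Nanog*-/- ESCs and for *Dkk1* in EpiSCs, without a minimum of reads.

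In EpiSCs, *Dkk1* was called higher in RNA and in contacts, *Wnt3* and *Wnt8a* were called higher in RNA with contact ratios of 0.78 (0.36 at 10 or more reads, past 2-fold) and 0.83 (1.40 at a score of at least 7), and *Wnt7b* was called lower in RNA with a ratio of 1.23. *Wnt6* was called for fewer contacts in EpiSCs at an RNA difference of 0.06. In *Nanog*-/- ESCs, *Lef1* was called lower in both, and *Dkk1*, called higher in RNA, had 10 contacts against 9 in WT ESCs, but a ratio of 0.60 at a score of at least 7 and 0.22 at 10 or more reads.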

How the data were processed

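PCHi-C, RNA-seq, and ChIP-seq samples are labelled in the series, 26 in all, and the ChIP-seq samples (4) were not analysed here. Per the labels and the methods of the study, PCHi-C reads were filtered with HiCUP, and fragment pairs were scored with CHiCAGO over 2 biological replicates per state. The lanes are not tied to replicates. The authors deposited for each pair the count of reads and the CHiCAGO score, both combined over replicates. The RNA table holds the RPKM that the authors reduced to a median per group. Its log2 fold change columns and its columns named signDiff, taken as p-values because they run from 0 to 1, are the authors' deposited comparisons and were not used. An RPKM column named BT12 was taken as *Nanog*-/- ESCs because it is the remaining RNA group and the series names the same comparison. The submitters' processing notes name Bowtie 1.1.0, Trim Galore, TopHat, and DESeq2, and GRCm38. RNA libraries did not keep strand by their kit, and the RNA depth is not given in the sources used here.

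Entries that give the same pair from either end were merged, keeping the higher score and its reads; the reads of the 2 ends were unequal for 29, 13, and 1217 pairs of WT ESCs, EpiSCs, and *Nanog*-/- ESCs, 1 of them a member pair (*Wnt7b* with *Gm4825*, *Nanog*-/-). Distances are between fragment midpoints. Both ends of all 199 member fragments were checked to be HindIII sites in GRCm38. Rows of 1 gene were merged. Members and lists were chosen with earlier results of these data known. Named pathway genes are, per role, up to 4 past 2-fold with the largest mean RPKM plus the most abundant, and nearest genes the 3 with the smallest distance. Partner genes were chosen among those of the 3 highest scores per member and state or in all 3 lists, and not all of these are named. The 2-fold calls, the contact counts, and the motif search were tested on simulated data. Alternatives were other scalings, pseudocounts, and filters, a score of at least 7, at least 10 reads, contacts within a chromosome, partners within 10 kb, a 3-fold threshold, and the longer motif. Python 3.11.15 with matplotlib 3.10.9, pandas 2.3.3, scipy 1.17.1, and numpy 2.4.6 was used.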

Additional observations from a re-analysis of the deposited data

How the results depend on the processing

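The numbers of members called in RNA stayed the same or moved by 1 member under each alternative scaling, pseudocount, and filter. No value past the threshold reversed; those of *Axin2* and *Lef1* in EpiSCs, within 2-fold, changed sign without scaling. For the pathway, the number higher in EpiSCs was 46 without scaling (56.1%, against 30.1% of all genes), and the number higher in *Nanog*-/- ESCs was 8 with a pseudocount of 0.1 (9.76%, against 5.65%). With a score of at least 7, member contacts numbered 48, 44, and 45 in the lists of WT ESCs, EpiSCs, and *Nanog*-/- ESCs, and the share kept was 35.4% in EpiSCs (all pairs 38.4%) and 50% in *Nanog*-/- ESCs (43.1%). With at least 10 reads the *Nanog*-/- list held 47, and the share kept was 38% there (all pairs 39.8%) and 41.8% in EpiSCs (40.2%), so members fell below all pairs in 1 state under each limit. With partners counted within 10 kb, 72.8% were kept in EpiSCs and 77.2% in *Nanog*-/- ESCs, against 64% and 64.9% over all baits. At 3-fold 1 of 8 members had more contacts in EpiSCs and 1 fewer (all baits 5.98% and 11.2%), and 0 and 3 in *Nanog*-/- ESCs (1.91% and 14.1%). Among baits with 10 or more contacts, an alternative chosen after seeing the data, 1 had fewer in EpiSCs and 0 in *Nanog*-/- ESCs, against 23.2% and 20.6% of such baits. With CTTTGAT, 1 member held a match. The cause of these shifts was not tested. The *Dkk1* contact ratio in *Nanog*-/- ESCs was 0.60 with a score of at least 7 and 0.22 with at least 10 reads, and with the latter limit that of *Wnt3* in EpiSCs was 0.36. Other contact ratios that turned direction were, at a score of at least 7 in EpiSCs, *Wnt8a* (1.40), *Axin2* (0.33), and *Lef1* (0.67), and with at least 10 reads *Lef1* in EpiSCs (0.56) and *Wnt3* (0.71) and *Wnt7b* (0.76) in *Nanog*-/- ESCs. No paired analysis was possible because each state has 1 combined list and 1 median. No value has a replicate error, scores limit what the lists hold, and contacts of few reads cannot show a difference.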

Other observations

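Contacts between 2 Wnt pathway promoters, members included, were listed for 5 pairs, named here after their values were seen. The strongest joined the ligand genes *Wnt1* and *Wnt10b*, 9.55 kb apart, with 193 reads in WT ESCs, 132 in *Nanog*-/- ESCs, and 150 in EpiSCs (scores 41.48, 15.26, and 8.80), and it was the one pair in all 3 lists. *Wnt3a* and *Wnt9a*, 17.1 kb apart, were joined in the *Nanog*-/- list only (23 reads, score 6.72), as *Wnt6* and *Wnt10a* were. All pairs of that list were shorter as well, with a median of 74.1 kb within a chromosome against 139 kb in WT ESCs and 141 kb in EpiSCs. Whether such short contacts are particular to Wnt genes was not tested. *Kremen1* and *Znrf3*, 181 kb apart, were joined in WT ESCs (15 reads) and *Nanog*-/- ESCs (8 reads), as *Wnt3* and *Wnt9b* were. The 4 pairs of Wnt ligand genes are neighbours on a chromosome, and other than *Wnt1* with *Wnt10b* none was in the EpiSC list. *Wnt3a* with *Wnt9a* and *Wnt6* with *Wnt10a* were not in the WT ESC list either. Of all WT ESC pairs, 39.6% were in the EpiSC list. Only *Wnt1* with *Wnt10b* and *Wnt3* with *Wnt9b* can be set beside that share, too few to show a difference from it.

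Of the 93 pathway genes, 81 had a baited fragment in the contact lists, which leave out captured baits without a listed contact. In EpiSCs 17 of the 81 had 2-fold more contacts and 19 of the 81 fewer, against 3124 (16.4%) and 5268 (27.7%) of 19022 baits. In *Nanog*-/- ESCs 12 of the 81 had more and 19 of the 81 fewer, against 1454 (7.64%) and 6326 (33.3%) of these baits.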
